A study of Homo sapiens with 10 samples.

Results

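The subunits of the oxidative phosphorylation complexes were followed in 10 bulk RNA-seq libraries of human sensory neuron cultures. They were found by gene symbol: the mitochondrially encoded MT-ND, MT-CO, MT-ATP and MT-CYB genes, and the nuclear NDUFA, NDUFB, NDUFC, NDUFS, NDUFV, UQCR, COX4 to COX8, ATP5F1, ATP5M and ATP5P families. The patterns caught 150 of the 30357 named genes in the table. Of these, 13 were mitochondrially encoded subunits, 80 were nuclear protein-coding subunits and 57 were pseudogene entries of the ATP5 families. The nuclear subunits comprised 37 of complex I, 8 of complex III, 17 of complex IV (NDUFA4 included) and 18 of complex V. Complex II, which has no mitochondrially encoded subunit, lay outside the patterns.

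The cultures were all derived from the established human embryonic stem line RUES2, edited to carry a tdTomato reporter at AVIL, the gene of the sensory neuron protein advillin. They were differentiated with a proprioceptor protocol (3 libraries), a mechanoreceptor protocol (3 libraries) or a nociceptor protocol (4 libraries) and harvested at day 60 in vitro. The protocols are meant to bias neurons toward muscle stretch, low-threshold touch and pain sensing. Every group carried the reporter, no undifferentiated or unedited culture was analysed here, and a single edited line limits all groups. The labels name biological replicates without saying whether these were separate differentiations, so a p-value here reflects library-to-library spread that may be technical. Named genes received between 27891186 and 44541262 estimated counts per library.

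In the inner mitochondrial membrane, complexes I, III and IV pass electrons to oxygen and pump protons, and complex V, the ATP synthase, uses the proton gradient to make ATP. Most subunits are encoded in the nucleus and imported, while a small core is transcribed within the organelle from long polycistronic RNAs that are cut into single messengers. Neurons rely strongly on this pathway to maintain ion gradients and axonal transport.

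The first sequence shows how tightly the mitochondrial genes are packed: it is the stretch that MT-ATP8 and MT-ATP6 share, MT:8527-8572 of GRCh38, plus strand. The capitals mark the start codon of MT-ATP6 and the stop codon of MT-ATP8. The other lines carry a difference in transcript form described further on, within ATP5F1C, which encodes the gamma subunit of the ATP synthase rotor. They show a 37-base exon (chr10:7806974-7807010 of GRCh38, plus strand, exon in capitals) with 15 bases of the neighbouring exons on each side. The last line is the junction of the transcript that lacks it. The sequences were read from GENCODE transcripts of GRCh38.
MT-ATP8 and MT-ATP6 overlap: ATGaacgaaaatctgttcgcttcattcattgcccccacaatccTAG
ATP5F1C with the exon: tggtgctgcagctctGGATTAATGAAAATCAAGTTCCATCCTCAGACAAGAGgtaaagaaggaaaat
ATP5F1C without the exon: tggtgctgcagctctgtaaagaaggaaaat

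The mitochondrial messengers were among the most abundant transcripts of these cultures. All levels here are TPM, an abundance per transcript length scaled to a fixed sum per library. By mean TPM over the 10 libraries, 7 of the 13 mitochondrial genes ranked within the first 20 of all named genes, and all 13 within the first 100. MT-CO2, a catalytic core subunit of complex IV, was highest at a mean of 10406 TPM, and MT-ND3, a small membrane subunit of complex I, was lowest at 1213 TPM. Between these stood MT-CO3 (6519 TPM), MT-ND4 (6160 TPM), MT-CYB (5198 TPM), MT-ATP6 (4681 TPM), MT-ND4L (4254 TPM), MT-CO1 (4181 TPM), MT-ND2 (3181 TPM), MT-ND6 (3008 TPM), MT-ND1 (2376 TPM), MT-ATP8 (2262 TPM) and MT-ND5 (1873 TPM). Library preparation selected on poly(A) tails and did not mark strand. MT-ND6 is the only one of these genes on the minus strand of the reference, so its reads cannot be told apart from those of the opposite transcript.

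Among nuclear subunits, 12 stood within the first 100 genes and 50 within the first 500. Their levels differed by complex: the median of the mean TPM was 322 for complex I, 475 for complex III, 882 for complex IV and 720 for complex V, over members with a mean of at least 10 TPM. In complex I the highest was NDUFA1, an accessory membrane subunit (1219 TPM), and the lowest NDUFV3, an accessory subunit of the NADH-oxidising arm (29.3 TPM). Complex III ran between UQCRQ, a small structural subunit (1115 TPM), and UQCRFS1, the Rieske iron-sulfur protein (118 TPM). In complex IV, COX6A1 was highest at 2662 TPM. In complex V, ATP5F1B, the catalytic beta subunit, was highest at 1405 TPM, and ATP5MGL was lowest at 0.194 TPM. NDUFA4, once counted in complex I and now in complex IV, averaged 589 TPM, and NDUFAB1, the acyl carrier protein that also serves complex I, averaged 520 TPM. ATP5ME, a small membrane subunit of the ATP synthase, stood between 513 and 2152 TPM. Pseudogene entries stayed low, with a summed level between 2.59 and 6.30 TPM per library. Only 1 of the 57, ATP5F1AP10, passed the filter on low counts, and 21 were at 0 in all libraries.

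In total 73 of the 80 nuclear subunits exceeded 10 TPM in every library, the lowest such value being 17.5 TPM. The other 7 averaged under 10 TPM, and each of them is a tissue-restricted form or a copy of a subunit that was abundant here. COX6A2, the heart and skeletal muscle form, had 0 counts in all 10 libraries, while its widely expressed counterpart COX6A1 had 242097 counts in total. A count of 0 allows up to 3 counts in a library, which is between 0.0674 and 0.108 CPM. COX4I2, a form known for its oxygen-sensitive expression in lung, had 1 count in all, against 143364 for COX4I1. COX7A1, the other muscle form, had 2 counts, against 151193 for COX7A2.

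The testis-associated forms were just as scarce. COX7B2 had 12 counts against 79080 for COX7B, and COX8C had 46 against 50167 for COX8A. COX6B2 was the one such gene with counts in every library, at 0.989 to 2.63 TPM, while COX6B1 stood between 415 and 1522 TPM. ATP5MGL, an intronless copy of ATP5MG, had 29 counts against 71136. COX6B2 was also the only one of the 7 that passed the filter on low counts, so 74 nuclear subunits entered the tests. The cultures thus expressed the widely used form in each of the 7 pairs plotted, in every library.

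**Figure D1:**
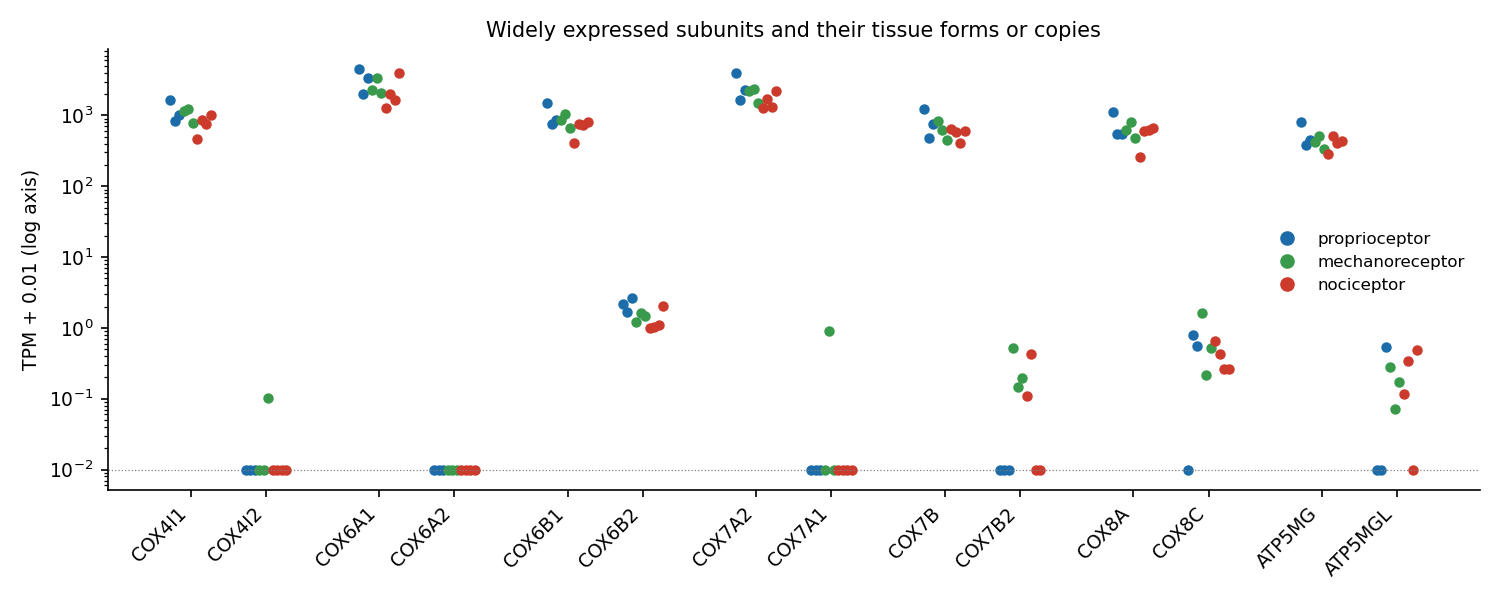
TPM of 7 widely expressed subunits and their tissue-restricted forms or copies in each library (log axis, 0.01 added so that zeros can be drawn, dotted line at zero). Each point is 1 library; the widely expressed member stands at or above 259.9 TPM in all 10 libraries and the other form at or below 2.63 TPM.

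The promoters of the COX6A pair are printed because these genes lie at opposite ends of the range. RefSeq windows of GRCh38.p14 run from 250 bases before to 50 after the gene start. The COX6A1 window (chr12:120437863-120438162, plus strand) has 58.7% GC and 22 CG pairs, and the capitals mark both matches to the NRF1 motif GCGCATGC. NRF1, nuclear respiratory factor 1, is a known activator of nuclear subunit genes. The COX6A2 window (chr16:31428311-31428610, minus strand) has 52% GC and 5 CG pairs, and none of the motifs searched was in it.
COX6A1: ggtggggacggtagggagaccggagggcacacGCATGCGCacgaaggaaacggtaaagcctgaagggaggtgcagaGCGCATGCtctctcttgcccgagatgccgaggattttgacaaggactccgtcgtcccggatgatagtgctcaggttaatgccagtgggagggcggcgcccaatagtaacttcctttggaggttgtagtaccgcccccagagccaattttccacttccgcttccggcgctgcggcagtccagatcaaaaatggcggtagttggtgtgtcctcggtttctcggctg
COX6A2: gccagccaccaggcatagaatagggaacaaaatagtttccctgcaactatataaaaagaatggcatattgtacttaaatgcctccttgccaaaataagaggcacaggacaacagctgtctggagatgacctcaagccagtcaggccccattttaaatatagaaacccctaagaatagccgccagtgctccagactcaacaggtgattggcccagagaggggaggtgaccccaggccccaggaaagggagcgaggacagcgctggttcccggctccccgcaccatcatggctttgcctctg

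RefSeq windows were found for 66 of the 80 nuclear subunits and compared with those of 27305 genes, on both strands, counting a gene once where it has several starts. The NRF1 motif was present for 18.2% of the subunits and 3.68% of all genes. The ETS motif CCGGAAGT, of the type bound by GABPA, was present for 16.7% and 4.95%, and the YY1 motif AAGATGGC for 16.7% and 3.52%. The cyclic AMP response element TGACGTCA was present for 6.06% and 2.25%, and the ESRRA motif AAGGTCA for 13.6% and 4.80%. These 5 motifs do not contain one another. The shares describe letters in these windows, with no test.

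By their share of the TPM, mitochondrial and nuclear subunits ranked the libraries differently. The 13 mitochondrial genes together took 7.72%, 5.36% and 5.53% of the TPM in the proprioceptor libraries, in replicate order. Their share was 2.29%, 5.43% and 6.99% in the mechanoreceptor libraries. It was 4.34%, 5.36%, 3.55% and 11.9% in the nociceptor libraries. The highest library, nociceptor 4, thus stood 5.21-fold above the lowest, mechanoreceptor 1, and the ranges of the 3 protocols overlapped. In TPM, nociceptor 4 was highest for all 13 genes, and mechanoreceptor 1 was lowest for 10 of them. By mean log2 CPM, proprioceptor 1 was highest for both sets, at 11.64 for mitochondrial and 8.91 for nuclear subunits. The lowest values there were 8.90 in mechanoreceptor 1 for mitochondrial and 6.90 in nociceptor 1 for nuclear subunits. No correlation between the sets was computed.

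The 80 nuclear subunits took 7.63%, 3.88% and 5.10% in proprioceptor libraries, 5.10%, 5.15% and 3.66% in mechanoreceptor libraries and 3.61%, 4.30%, 3.53% and 4.76% in nociceptor libraries. Here the range was 2.16-fold, with proprioceptor 1 highest. That library held the highest level of 57 of the 73 subunits above 10 TPM. Mechanoreceptor 1, lowest in mitochondrial messengers, was not low in nuclear ones.

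As a ratio of summed TPM, mitochondrial over nuclear, the log2 values were 0.02, 0.47 and 0.12 in proprioceptor libraries, -1.15, 0.08 and 0.94 in mechanoreceptor libraries and 0.26, 0.32, 0.01 and 1.33 in nociceptor libraries. The mean was 0.20 ± 0.24 in proprioceptor (SD, n = 3), -0.05 ± 1.05 in mechanoreceptor (SD, n = 3) and 0.48 ± 0.58 in nociceptor libraries (SD, n = 4). The differences of these means were -0.53 for mechanoreceptor minus nociceptor, -0.28 for proprioceptor minus nociceptor and 0.25 for proprioceptor minus mechanoreceptor. Each was smaller than the pooled spread within protocols, an SD of 0.69. The mechanoreceptor minus nociceptor difference was 0.03 without mechanoreceptor 1 and -0.24 without nociceptor 4, and the proprioceptor minus mechanoreceptor difference was -0.31 without mechanoreceptor 1. In bulk RNA, more or fewer cells of a type and more or less RNA per cell cannot be told apart.

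**Figure D2:**
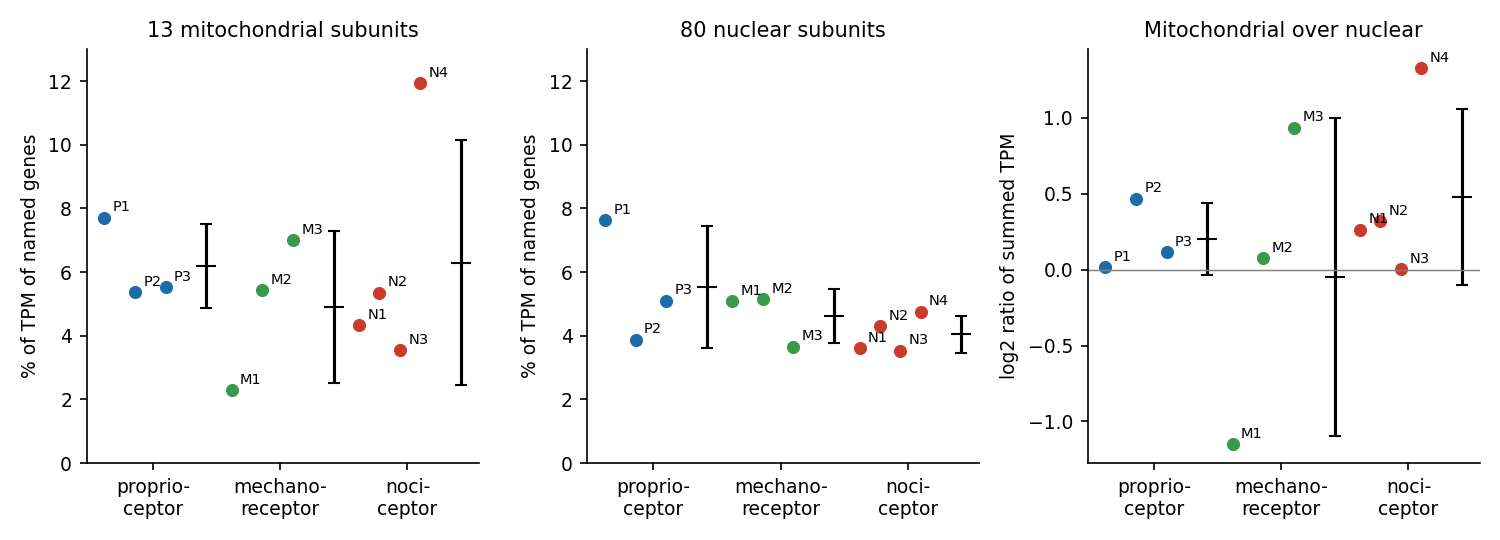
Share of the TPM of named genes taken by the 13 mitochondrial and the 80 nuclear subunits, and the log2 ratio of their sums, in each library (P proprioceptor, M mechanoreceptor, N nociceptor, numbers are replicates). Black bars give the protocol mean ± SD; the ratio spans -1.15 in M1 to 1.33 in N4, and the protocols overlap in all 3 panels.

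The contrast held within each complex that has subunits of both origins. In mechanoreceptor 1 the log2 ratio of mitochondrial to nuclear TPM was -0.74 for complex I, -1.21 for complex III, -0.98 for complex IV and -2.26 for complex V, the lowest value of all libraries each time. In nociceptor 4 it was 1.78, 1.43, 1.31 and 0.19 in the same order, the highest of all libraries for complexes I, III and V. For complex IV the highest ratio, 1.50, was that of mechanoreceptor 3.

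Within the mitochondrial set, a few genes changed their share far more than the rest. MT-CO1, the catalytic subunit of complex IV, took 8.10%, 4.63% and 7.18% of the mitochondrial TPM in proprioceptor libraries, 8.05%, 6.53% and 10.7% in mechanoreceptor libraries and 10.1%, 10.2%, 3.57% and 6.40% in nociceptor libraries. Its share was thus high in mechanoreceptor 3 and nociceptor 1 and 2, low in nociceptor 3 and proprioceptor 2, and overlapped between protocols. The range was 2.98-fold. MT-CO2, another core subunit of the same enzyme, kept between 15.3% and 20.7%, a 1.35-fold range.

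MT-ND1, at the membrane arm's junction with the rest of complex I, took 4.14%, 3.87% and 6.14% in proprioceptor libraries, 7.32%, 4.39% and 3.58% in mechanoreceptor libraries and 2.51%, 2.98%, 3.09% and 5.10% in nociceptor libraries. Its neighbour MT-ND2 ranged between 2.97% in nociceptor 1 and 8.04% in nociceptor 4. The MT-CO1 to MT-ND1 ratio was 4.03 in nociceptor 1 and 3.42 in nociceptor 2, but 1.16 in nociceptor 3 and 1.25 in nociceptor 4, so the 4 libraries of this protocol did not share 1 profile. The remaining genes were steadier, with ranges between 1.40-fold for MT-ATP6 and 2.05-fold for MT-ATP8.

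**Figure D3:**
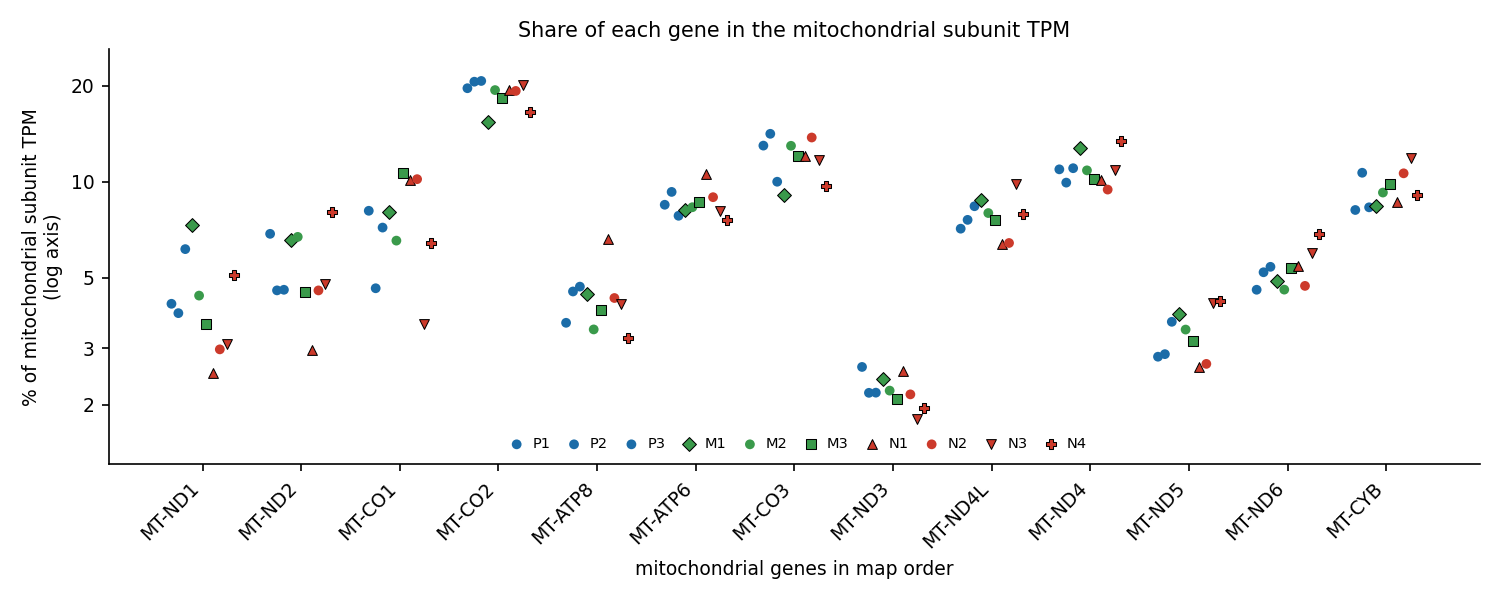
Share of each of the 13 genes in the summed mitochondrial TPM of a library (log axis), with genes in their order on the mitochondrial map and 1 point per library. MT-CO1, MT-ND1 and MT-ND2 spread 2.98-, 2.91- and 2.71-fold, while MT-CO2 spreads 1.35-fold.

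Some of these values rest on an estimated division of reads. MT-ATP8 and MT-ATP6 overlap by 46 bases, shown at the start, MT-ND4L and MT-ND4 by 7, and MT-ATP6 and MT-CO3 by 1. The ratio of MT-ATP8 to MT-ATP6 lay between 0.414 and 0.626, and that of MT-ND4L to MT-ND4 between 0.589 and 0.904. The table also held 405 nuclear copies of mitochondrial genes, whose TPM came to between 1.76% and 2.75% of the mitochondrial sum. Of that, 74.5% to 82.0% was assigned to MTATP6P1, a copy of MT-ATP6.

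Windows of 31 bases, taken from the GENCODE transcripts, show how far each gene is exposed to this. Of the MT-CO1 windows, 66.7% occurred in at least 1 nuclear copy, as did 62.8% of MT-ATP6 windows, 56.9% of MT-ND2 windows and 50.5% of MT-CO2 windows. For MT-CYB it was 4.95% and for MT-ND3 3.48%. The part of read division in the MT-CO1 and MT-ND2 values was not tested.

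Nuclear subunits differed among themselves in how far they varied. Among the steadiest over the 10 libraries, by the SD of log2(TPM + 1), were ATP5PB, a stator subunit of the ATP synthase (467 to 677 TPM, SD 0.18), NDUFV2, an iron-sulfur subunit of the NADH-oxidising arm of complex I (289 to 489 TPM, SD 0.23), and ATP5F1A, the alpha subunit of the ATP synthase (601 to 1093 TPM, SD 0.24). The most variable were NDUFB9 (SD 0.70), NDUFA5 (SD 0.60), COX5B (SD 0.59) and COX6A1 (SD 0.59).

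NDUFB9, an accessory subunit of complex I, had 1139, 410 and 588 TPM in proprioceptor libraries, 643, 783 and 401 TPM in mechanoreceptor libraries and 238, 406, 319 and 846 TPM in nociceptor libraries. COX5B, a zinc-binding subunit of complex IV, had 1409, 557 and 728 TPM in proprioceptor libraries, 756, 929 and 511 TPM in mechanoreceptor libraries and 303, 600, 508 and 752 TPM in nociceptor libraries. Both were highest in proprioceptor 1 and lowest in nociceptor 1. NDUFA5, another accessory subunit of complex I, had 369, 212 and 410 TPM in proprioceptor libraries, 575, 384 and 240 TPM in mechanoreceptor libraries and 519, 248, 150 and 296 TPM in nociceptor libraries, so that it was high where those were lowest, in nociceptor 1.

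The c-ring of the ATP synthase offers a matched set, since ATP5MC1, ATP5MC2 and ATP5MC3 encode the same mature protein. ATP5MC3 took the largest share of their summed TPM in every library, between 36.3% and 52.0%. ATP5MC2 took 18.1%, 27.2% and 25.8% in proprioceptor libraries, 16.5%, 19.2% and 25.2% in mechanoreceptor libraries and 20.4%, 29.5%, 34.1% and 21.4% in nociceptor libraries. It passed ATP5MC1 in nociceptor 3 only, where they took 34.1% and 29.6%.

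Within libraries, the deviations of nuclear subunits varied with the base composition of their transcripts. Transcript GC was taken from GENCODE models, weighted by TPM, for all 73 subunits above a mean of 10 TPM, and ran between 33.9% and 69.4%. In nociceptor 1, Spearman's rho between GC and a subunit's deviation from its own mean log2(TPM + 1) was -0.84 across the 73 genes, and -0.64 across 15993 tested genes. The 17 subunits under 45% GC had a median deviation of 0.11 there, while the 16 at 55% or more had -0.97. In mechanoreceptor 2 rho across the subunits was 0.68, in nociceptor 3 it was 0.63 and in proprioceptor 2 it was 0.58. It was -0.55 in mechanoreceptor 1 and -0.43 in proprioceptor 3. The points share a library, genes are not independent replicates, and no p is given. The sign differed between libraries of the same protocol.

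In proprioceptor 1 the deviations varied with transcript length: rho was -0.60 across the subunits and -0.51 across all tested genes, while rho with GC was 0.37 and 0.11. The rank correlation with length was 0.46 and 0.31 in mechanoreceptor 3 and 0.32 and 0.27 in proprioceptor 2. The subunits are short, with a median length of 747 bases against 2149 for all tested genes. Genes that are no members were also read by length, above a cut on mean log2 CPM that leaves out weakly expressed ones. In proprioceptor 1 the 90 under 600 bases deviated by a median log2 CPM of 1.50, and the 1254 of 4000 bases or more by -0.71. The TMM scaling factor was 0.778 in proprioceptor 1 and between 0.943 and 1.10 in the others. The part of length and GC in the differences between subunits was not tested.

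**Figure D4:**
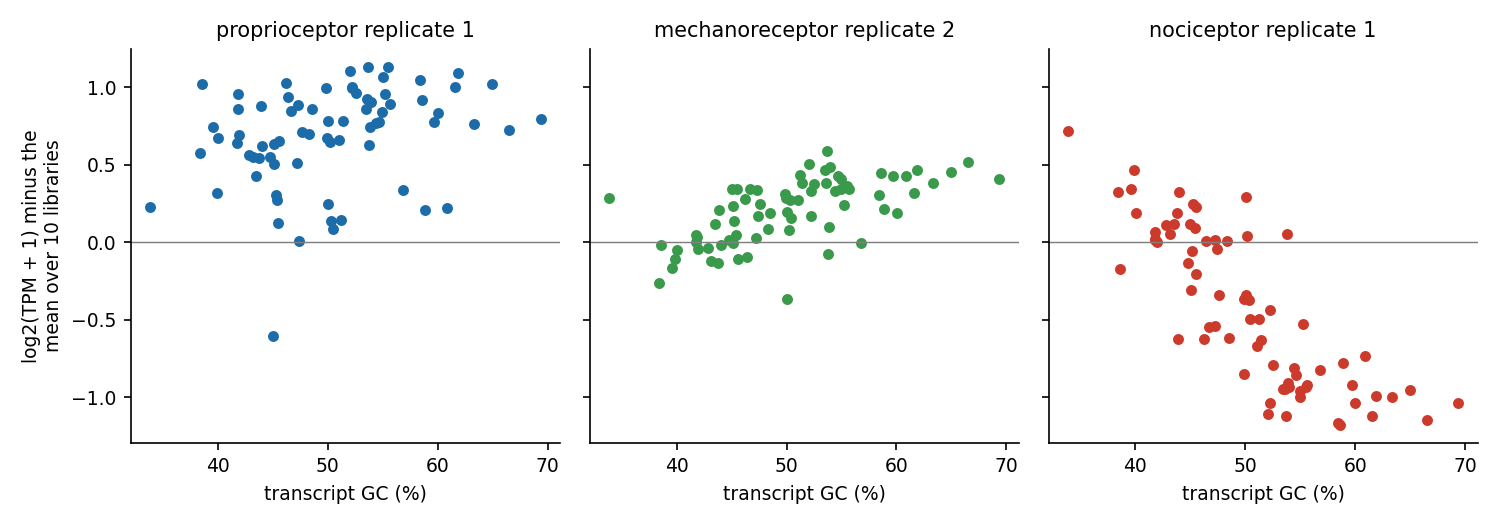
Deviation of 73 nuclear subunits from their mean log2(TPM + 1) over 10 libraries against transcript GC, in 1 library of each protocol. In proprioceptor 1 most subunits lie above 0 at any GC, in mechanoreceptor 2 they rise with GC (rho 0.68) and in nociceptor 1 they fall steeply with GC (rho -0.84).

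The summed TPM of the nuclear subunits also moved with the non-neuronal markers of the cultures. Fibroblast and mesenchyme markers averaged a log2 CPM of 1.50, 4.63 and 1.32 in proprioceptor libraries, 0.84, 1.03 and 4.66 in mechanoreceptor libraries and 5.49, 5.30, 5.15 and 2.49 in nociceptor libraries. The 5 highest of these, proprioceptor 2, mechanoreceptor 3 and nociceptor 1 to 3, were also the 5 highest in Schwann and satellite glia markers and the 5 lowest in pan-neuronal markers. The same 5 libraries had the lowest summed nuclear subunit level, 36406 TPM in proprioceptor 2, 34176 TPM in mechanoreceptor 3 and 32920, 41035 and 34338 TPM in nociceptor 1 to 3. In the other 5 it was 72565 and 47803 TPM in proprioceptor 1 and 3, 49514 and 49454 TPM in mechanoreceptor 1 and 2 and 44892 TPM in nociceptor 4. By the mean log2 CPM of the nuclear subunits, the scale of the markers, this split did not hold. Nociceptor 2 stood at 7.48 there, above proprioceptor 3 (7.45), nociceptor 4 (7.44) and mechanoreceptor 1 (7.38).

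For the mitochondrial sum, 4 of these 5 libraries were among the 5 lowest, but the lowest of all, mechanoreceptor 1 with 22301 TPM, had a pan-neuronal marker sum of 15154 TPM, above all of those 5 (at most 11245 TPM). The summed TPM of the 13 mesenchyme markers ran between 472 and 2008 in proprioceptor, 527 and 2113 in mechanoreceptor and 1022 and 4459 in nociceptor libraries. At the low ends most of it was THY1, with 432 TPM in proprioceptor 3, 508 in mechanoreceptor 1 and 841 in nociceptor 4. At the high ends THY1 had 539 TPM in proprioceptor 2, 854 in mechanoreceptor 3 and 568 in nociceptor 3. In these libraries the collagen gene COL1A1 had 536, 366 and 1984 TPM, and COL1A2 had 691, 642 and 1510 TPM. At the low ends both collagen genes lay between 3.26 and 119 TPM. Of the same mesenchyme markers, the defining transcription factor TWIST1 was at 0 in 2 libraries and PRRX1 and PDGFRA in 1 each. TWIST1, PRRX1 and PDGFRA did not pass 2.57 TPM in any library. Glia markers summed to 60.8 to 2404 TPM in proprioceptor, 7.21 to 1934 TPM in mechanoreceptor and 408 to 7198 TPM in nociceptor libraries, with FOXD3 at 0 in 1 library. All 10 sensory neuron and 12 pan-neuronal markers were present in every library. Apart from the fit with a mesenchyme term below, the part of culture composition in the subunit levels was not tested.

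No subunit passed the test between protocols. With edgeR's quasi-likelihood test and Benjamini-Hochberg adjustment over 16130 genes, 0 of the 13 mitochondrial and 0 of the 74 nuclear subunits tested had an adjusted p under 0.05 in any of the 3 contrasts or in the F test over the protocols. The background was the same, since 0% of all genes were called in each of them. DESeq2 called 123, 31 and 0 genes in the mechanoreceptor minus nociceptor, proprioceptor minus nociceptor and proprioceptor minus mechanoreceptor contrasts, of which 0 were subunits. On log2(TPM + 1), limma called 0 genes in each. The common biological coefficient of variation was 0.55.

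In the mechanoreceptor minus nociceptor contrast, all 13 mitochondrial subunits had a log2 fold change below 0, with a median of -0.50, beside 0.00 over all genes. Their standard errors were between 0.47 and 0.78. The nuclear subunits had a median of 0.05, 42 above and 32 below 0, where 50.1% of all genes were above 0. The mitochondrial median was -0.01 without nociceptor 4, with 6 of 13 above 0, and -0.21 without mechanoreceptor 1. The medians over all genes were 0.02 and -0.10 in those fits. The nuclear median turned to -0.48 with a mesenchyme term, with 5 of 74 above 0, was 0.20 on log2(TPM + 1) with 65 of 74 above 0, and was -0.00 in DESeq2 with 37 above 0. Over all genes the medians of these fits were -0.04, 0.11 and -0.05 in the same order. No subunit reached an unadjusted p under 0.05, where 8.18% of all genes did.

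The subunits with the smallest p in this contrast were NDUFA10, MT-ATP8 and NDUFS1. NDUFA10, an accessory subunit of complex I that resembles a nucleoside kinase, had 193, 177 and 148 TPM in mechanoreceptor libraries and 113, 133, 123 and 125 TPM in nociceptor libraries, and the groups did not overlap. Its log2 fold change was 0.38 ± 0.28 (SE, adjusted p = 0.682 by edgeR). NDUFS1, the largest core subunit of complex I, had 145, 110 and 91.9 TPM in mechanoreceptor and 94.5, 74.9, 72.3 and 67.4 TPM in nociceptor libraries, which overlapped, with a log2 fold change of 0.33 ± 0.25 (SE, adjusted p = 0.687 by edgeR). MT-ATP8, an ATP synthase membrane subunit, had 990, 1793 and 2593 TPM in mechanoreceptor and 2622, 2209, 1425 and 3636 TPM in nociceptor libraries, with a log2 fold change of -0.63 ± 0.47 (SE, adjusted p = 0.685 by edgeR).

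For proprioceptor minus nociceptor, 74 of 74 nuclear subunits had a log2 fold change above 0, with a median of 0.77 beside 0.03 over all genes, 52.2% of which were above 0. On log2(TPM + 1) it was 73 of 74, with a median of 0.39 beside -0.08 over all genes. The mitochondrial median was 0.27, with 12 of 13 above 0, and 11 of 13 on log2(TPM + 1). These counts rested on proprioceptor 1: without it the nuclear median was -0.07 with 27 of 74 above 0, and the mitochondrial median was -0.42 with 0 of 13 above 0. Over all genes the median of that fit was also -0.07, and their share above 0 was not counted there. Without nociceptor 4 the mitochondrial median was 0.79. With a mesenchyme term it was 0.00, with 7 of 13 above 0, and the nuclear median was 0.28, with 69 of 74 above 0.

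In this contrast 3 of 87 subunits (3.45%) had an unadjusted p under 0.05, against 6.19% of all genes. UQCR10, a small membrane subunit of complex III, had 1017, 472 and 617 TPM in proprioceptor libraries and 283, 493, 429 and 509 TPM in nociceptor libraries. Proprioceptor 1 lay far above the rest, and proprioceptor 2 lay within the nociceptor range. The log2 fold change was 1.09 ± 0.48 (SE, adjusted p = 0.665 by edgeR), and 0.16 without proprioceptor 1.

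UQCRH, the hinge protein that holds cytochrome c1 to cytochrome c, had 994, 470 and 624 TPM in proprioceptor and 369, 493, 370 and 504 TPM in nociceptor libraries. Its log2 fold change was 1.06 ± 0.47 (SE, adjusted p = 0.665 by edgeR), and 0.12 without proprioceptor 1. UQCRH has a near-identical intronless copy, UQCRHL, so its reads were divided by estimation. NDUFA8, an accessory subunit of complex I, had 385, 222 and 237 TPM in proprioceptor and 144, 216, 180 and 203 TPM in nociceptor libraries, which did not overlap. Its log2 fold change was 0.95 ± 0.43 (SE, adjusted p = 0.665 by edgeR), and 0.09 without proprioceptor 1.

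For proprioceptor minus mechanoreceptor, 13 of 13 mitochondrial subunits were above 0, also on log2(TPM + 1), with medians of 0.80 and 0.42. Of the nuclear subunits, 73 of 74 were above 0 with a median of 0.73, beside 53.7% of all genes and a median of 0.04 over them. On log2(TPM + 1), 62 of 74 were above 0 with a median of 0.17, beside a median of -0.18 over all genes. Without proprioceptor 1 the mitochondrial median was 0.10, with 11 of 13 above 0, and the nuclear median -0.10, with 14 of 74 above 0. The median over all genes was 0.0002 in that fit. Unadjusted p lay under 0.05 for 2 of 87 subunits (2.30%), against 1.49% of all genes.

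NDUFB1, a small accessory subunit of complex I, had 1137, 481 and 766 TPM in proprioceptor and 631, 555 and 449 TPM in mechanoreceptor libraries, with a log2 fold change of 1.13 ± 0.49 (SE, adjusted p = 1.0 by edgeR). It was 0.21 without proprioceptor 1. ATP5F1E, the epsilon subunit of the ATP synthase rotor, had 361, 144 and 211 TPM in proprioceptor and 147, 175 and 129 TPM in mechanoreceptor libraries, with a log2 fold change of 1.19 ± 0.52 (SE, adjusted p = 1.0 by edgeR), and 0.22 without proprioceptor 1. ATP5PD, a stator subunit, had 753, 392 and 554 TPM in proprioceptor and 469, 483 and 405 TPM in mechanoreceptor libraries. Its log2 fold change was 0.84 ± 0.44 (SE, adjusted p = 1.0 by edgeR), and 0.06 without proprioceptor 1. All 3 overlapped between protocols through proprioceptor 2.

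By complex, the proprioceptor minus nociceptor medians were 0.70 for complex I, 0.82 for complex III, 0.94 for complex IV and 0.75 for complex V. Without proprioceptor 1 they were -0.16, -0.02, 0.04 and -0.05 in the same order, beside -0.07 over all genes. In the F test over the protocols 5.73% of all genes and 0 of 87 subunits had an unadjusted p under 0.05. The smallest subunit value there was that of NDUFB1 (adjusted p = 0.813 by edgeR).

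Other parts of the pathway were read from lists of known members, of which 0 genes passed the adjusted threshold in any contrast. In proprioceptor minus nociceptor, 52.2% of all genes were above 0, with a median of 0.03. Without proprioceptor 1 the median over all genes was -0.07, and their share above 0 was not counted. The 44 assembly factors had 42 members above 0 (median 0.43), and 17 without proprioceptor 1 (median -0.04). The 77 mitochondrial ribosomal proteins had 72 above 0 (median 0.40), and 7 without that library (median -0.21). The 76 cytosolic ribosomal proteins tested, short transcripts from outside the mitochondrion, had 74 above 0 (median 0.62), and 8 without it (median -0.24). Their counts above 0 fell with the removal of proprioceptor 1 as those of the subunits did.

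Genes of glycolysis had a median above 0 in this contrast with and without proprioceptor 1. Of the 17 genes, 16 were above 0 (median 0.51), and 14 were above 0 without proprioceptor 1 (median 0.19). An unadjusted p under 0.05 was reached by 4, where 6.19% of all genes reached it: ALDOC, an aldolase of brain (log2 fold change 1.20 ± 0.32), ENO2, the neuronal enolase (1.02 ± 0.39), GPI (0.86 ± 0.31) and PFKM (0.69 ± 0.31), SE each, all with an adjusted p of 0.665 by edgeR. ENO2 and PFKM were named after their values were seen. In mechanoreceptor minus nociceptor 15 of 17 were above 0 (median 0.28), where 50.1% of all genes were. Pan-neuronal markers had medians of 0.74 in proprioceptor minus nociceptor and 0.44 in mechanoreceptor minus nociceptor, with 12 and 11 of 12 above 0. Whether glycolytic genes followed the neuronal share of the cultures was not tested.

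For the remaining lists, the median in proprioceptor minus nociceptor was 0.22 for the 4 subunits of complex II, 0.44 for 18 cytochrome c and carrier genes, 0.73 for 5 subunits whose symbols fall outside the patterns, 0.36 for 13 genes of the citric acid cycle and 0.03 for 22 genes of mitochondrial DNA and RNA upkeep. It was -0.16 for 9 regulators of nuclear subunit genes, 0.01 for 11 hypoxia response genes and 0.21 for 15 mitochondrial stress response genes. These medians include proprioceptor 1. Its mean log2 CPM was 7.79 for complex II, 7.65 for carriers and 6.29 for subunits outside the patterns. Proprioceptor 2 and 3 had 6.72 and 6.64, 6.52 and 6.65, and 5.01 and 5.28. Nociceptor libraries ran between 6.54 and 7.15, 6.49 and 6.84, and 4.87 and 5.31. For the regulators proprioceptor 1 was lower, 3.13 against 4.01 and 4.07. Among the regulators, PPARGC1A, a coactivator of mitochondrial biogenesis, came first in the F test, with a log2 fold change of 1.63 ± 0.65 in proprioceptor minus nociceptor (SE, adjusted p = 0.665 by edgeR). GABPA, an ETS factor, came next and had -0.90 ± 0.50 in that contrast (SE). The leading pairs of the other lists in the same F test, all with an adjusted p between 0.813 and 0.853 by edgeR, were SDHB and SDHC of complex II, ATP5IF1, which inhibits the ATP synthase, and the ADP/ATP carrier SLC25A4. For assembly they were ECSIT and the copper chaperone COX17, for the citric acid cycle DLST and SUCLG2, and for mitochondrial RNA and DNA PNPT1 and the helicase TWNK. For the ribosomes they were MRPS25, MRPL33, RPS27L and RPL38, for hypoxia ADM and VEGFA, and for subunits outside the patterns ATP5IF1 and COX7A2L. From the stress list, led by GDF15 and SESN2, GDF15, a secreted stress signal, had -2.32 ± 0.97 in the same contrast (SE, adjusted p = 0.665 by edgeR).

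Several members differed between libraries in the estimated shares of their transcripts. The widest range was that of ATP5MG-204, which took 4.84% of the ATP5MG TPM in nociceptor 1 and 58.7% in nociceptor 4. NDUFB6-203 took between 38.8% in proprioceptor 1 and 88.6% in nociceptor 1, and COX6C-206 between 20.5% in nociceptor 1 and 64.1% in mechanoreceptor 2. Nociceptor 1 was at an end of the range for all 3 of these.

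ATP5F1C had a narrower range than those, 28.6 percentage points for its transcript ATP5F1C-201, but its forms differ by a defined exon. The gene is known to be spliced in a tissue-specific way: the 37-base exon printed above is skipped in heart and skeletal muscle and kept in most other tissues. It was singled out after the values of all member transcripts had been seen, so its values are a description with no test. Transcripts without the exon took 1.02%, 10.3% and 0.729% of the ATP5F1C TPM assigned to either form in proprioceptor libraries, 0.599%, 0.388% and 11.6% in mechanoreceptor libraries and 11.3%, 18.3%, 29.2% and 3.47% in nociceptor libraries. The share was high in proprioceptor 2, mechanoreceptor 3 and nociceptor 1 to 3 and low in the other 5, so that protocols overlapped.

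The 5 libraries with the high share are those with the highest mesenchyme and glia markers. In TPM, the form without the exon stood at 46.7 in proprioceptor 2, 54.8 in mechanoreceptor 3 and 69.9, 94.0 and 130 in nociceptor 1 to 3, and at 2.41 to 19.5 in the others. The whole gene had 775, 459 and 556 TPM in proprioceptor, 823, 625 and 476 TPM in mechanoreceptor and 623, 518, 449 and 566 TPM in nociceptor libraries. From estimated counts in place of TPM, the shares lay between 0.377% and 28.8%.

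Muscle markers were near 0: the 9 genes summed to at most 3.54 TPM in a library, the regulator MYOD1 was at 0 in 9 of 10 libraries and the muscle subunit COX6A2 in all of them. In the order of mesenchyme level the exon share was not monotonic, since nociceptor 1 had the highest marker level (5.49) and a share of 11.3%, and nociceptor 3 had a marker level of 5.15 and 29.2%. By glia level nociceptor 3 was highest (7.71), as it was by share. Nociceptor 1 came next (7.14), above nociceptor 2 (6.77), which had a share of 18.3%. The libraries with a low share had the same order by glia level and by share. The part of culture composition in the exon share was not tested.

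**Figure D5:**
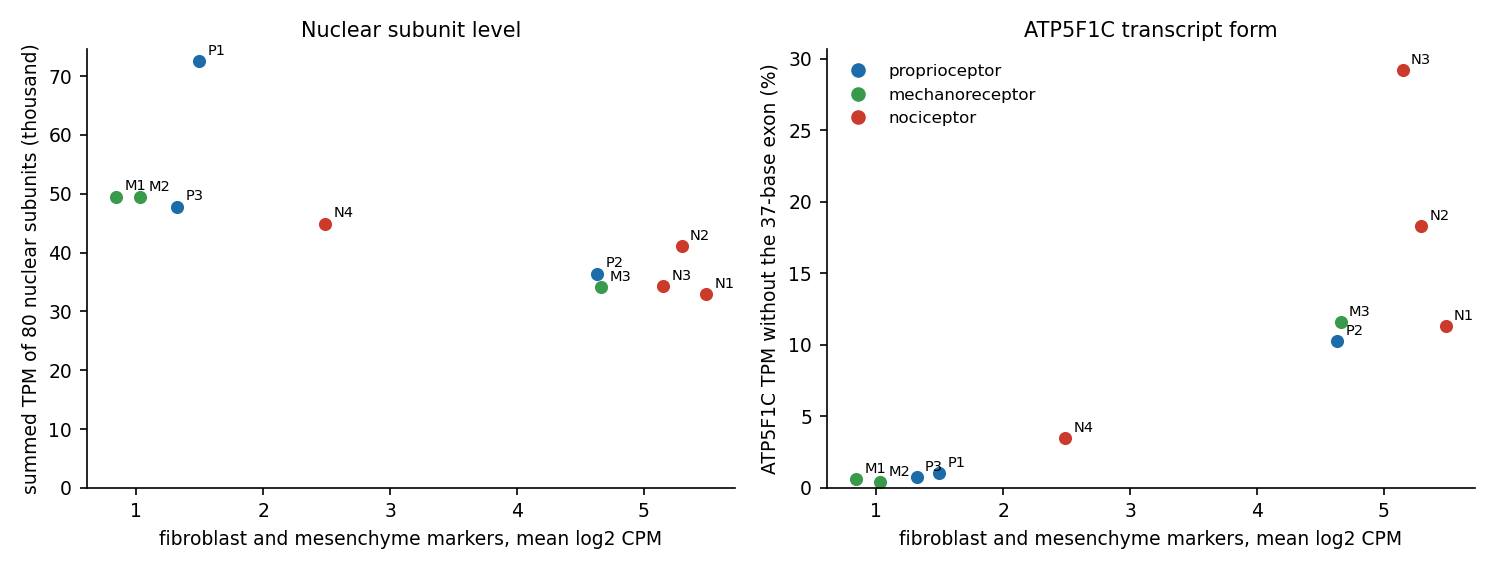
Summed TPM of the 80 nuclear subunits (left) and share of ATP5F1C TPM without the 37-base exon (right) against the mean log2 CPM of fibroblast and mesenchyme markers, 1 labelled point per library (P proprioceptor, M mechanoreceptor, N nociceptor). The 5 libraries with marker levels of 4.63 and above have nuclear sums of at most 41035 TPM and exon-free shares of 10.3% or more.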

How the data were processed

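The authors deposited estimated counts and TPM per gene and per transcript for each of the 10 libraries. Per the submitters' processing notes they came from kallisto 0.50.1 on GRCh38.p14; how transcripts were summed to genes is not given in the sources used here. Libraries were made from Trizol RNA with Clontech Ultra Low v4 and NexteraXT reagents, per the labels. The entry with a blank name (0.733% to 1.66% of counts, 2.81% to 8.80% of TPM) was left out.

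Groups came from the sample titles. Deposited estimated counts (whole numbers) were filtered with filterByExpr (16130 genes), scaled by TMM and fitted in 1 edgeR 4.0.16 quasi-likelihood model over all 10 libraries (R 4.3.3); tests are two-sided. Alternatives used DESeq2 1.42.0 and limma 3.58.1 on log2(TPM + 1) and log2(TPM + 0.1). Log2 CPM used a prior count of 2. The fit was tested on simulated counts. Sums, ratios and lists carry no test. No 2 libraries of a protocol agreed within sampling noise: the lowest chi-square was 131.1 per degree of freedom. The upper limit given for a gene without counts covers counting error only. The standard errors of log2 fold changes come from the quasi-likelihood fit and also include the spread between libraries.

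The members, gene lists and marker lists were chosen with earlier results of these data known. Members named are the 13 mitochondrial genes, the highest and lowest of each complex, the 3 smallest p per contrast, the 4 most and least variable, known isoforms, and for pathway lists genes with the smallest p. Protein sequences were not used here, and 1 item that the rule names is not reported here.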

Additional observations from a re-analysis of the deposited data

Results flagged for a closer look

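Each value below was marked because 1 of the 4 nociceptor libraries lay far from the other 3 (its gap to the nearest, over the range, passed Dixon's critical value); 91 values were checked in this way, and chance marks about 1 in 20. Nociceptor 4 was high for 6 of the 7 mitochondrial subunits of complex I: MT-ND1 at 5746 TPM, MT-ND2 at 9054 TPM, MT-ND4 at 15107 TPM, MT-ND4L at 8905 TPM, MT-ND5 at 4770 TPM and MT-ND6 at 7707 TPM. The same library was low for NDUFC1 at 150 TPM and high for COX6B2 at 2.05 TPM. Nociceptor 1 was low for COX8A at 260 TPM, NDUFA13 at 414 TPM and NDUFA3 at 168 TPM. Nociceptor 2 was high for ATP5F1E at 204 TPM and NDUFB4 at 321 TPM.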

How the results depend on the processing

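The number of subunits called stayed 0 in the 3 contrasts and the F test with DESeq2, limma on log2(TPM + 1) or log2(TPM + 0.1), total counts in place of TMM, scaling without mitochondrial entries, no low-count filter, a mesenchyme term, the replicate block and each library left out. DESeq2 called 123, 31 and 0 of all genes in the contrasts and 79 over the protocols, where edgeR called 0. A count of 0 in so small a design does not show that levels are alike. The log2 fold changes of the 9 subunits named by smallest p kept their direction in each of 18 alternatives.

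Pairing by replicate number was not shown: of 9 correlations between same-numbered libraries (-0.63 to 0.49), 4 were above 0.1. Between libraries of other numbers 13 of 24 were above 0.1 (-0.60 to 0.79). Such correlations cannot settle whether same-numbered libraries shared a round of work. With the replicate block, which can use nociceptor 4 in no pair, the differences of the log2 ratio of mitochondrial to nuclear TPM were -0.24 for mechanoreceptor minus nociceptor, 0.00 for proprioceptor minus nociceptor and 0.25 for proprioceptor minus mechanoreceptor. Leaving out 1 library each, they ran between -1.02 and 0.03, between -0.44 and 0.00, and between -0.31 and 0.74. The differences in mitochondrial share ran between -0.67 and 0.14, between -0.09 and 0.49, and between -0.01 and 0.79. Those in nuclear share ran between 0.10 and 0.35, between 0.15 and 0.63, and between -0.04 and 0.45. Estimated counts, medians of members, a denominator without mitochondrial entries and dropping members under 1 TPM each moved these differences by less than the spread within protocols. For the ratio and the mitochondrial share that spread, an SD of 0.69, is larger than the differences themselves. A change of sign could therefore pass this comparison. The median log2 fold change of all genes moved by more than 0.1 on the limma TPM scales. For proprioceptor minus mechanoreceptor, mechanoreceptor minus nociceptor and proprioceptor minus nociceptor it was -0.18, 0.11 and -0.08 on log2(TPM + 1). On log2(TPM + 0.1) it was -0.25, 0.15 and -0.11. In the same order it also moved so far to 0.14 without mechanoreceptor 3, -0.10 without mechanoreceptor 1 and -0.07 without proprioceptor 1. The list medians and the ATP5F1C share were added to the alternatives after seeing the data; the ATP5F1C difference of -11.6 percentage points for proprioceptor minus nociceptor ran between -15.6 and -7.02 with 1 library left out, and that of -0.18 for proprioceptor minus mechanoreceptor between -3.32 and 3.52, the upper value without mechanoreceptor 3. Depth limits the values of the scarce tissue forms.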
